A study of Mus musculus with 4 samples.

Results

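The vomeronasal type 2 receptor genes, named Vmn2r with a number, were examined in lists of IgD ChIP-seq peaks from mouse pro-B cells. All protein-coding RefSeq genes with such a symbol on GRCm38 (mm10) were taken, 123 of 21900 protein-coding genes. One of them, Vmn2r122, carries coordinates of an unplaced scaffold and could not be set against the peaks, so 122 genes on 9 chromosomes were analysed. The cells were sorted from the bone marrow of wild-type mice as B220+, IgM- and CD43+. Chromatin was precipitated with an antibody against mouse IgD in 2 libraries and with mouse IgG, the isotype control, in 2 others. The sources used here do not give strain, age or sex, or say whether separate mice were used for the libraries. The deposited data are 1 peak list for IgD library 1 over IgG library 1, here called pair 1, and 1 for the libraries numbered 2, pair 2. The lists give positions and enrichment but no expression, so the label pro-B could not be checked against marker genes.

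V2R proteins are class C G protein-coupled receptors with a large extracellular domain, related to calcium-sensing and metabotropic glutamate receptors. They are known from sensory neurons in the basal layer of the vomeronasal organ, where they detect peptide and protein pheromones such as major urinary proteins and exocrine gland-secreted peptides and signal through the G protein alpha subunit Gnao1 and the channel Trpc2. The genes lie in tandem arrays of close copies, and each neuron is thought to express few of them. No role of these receptors in B cells is assumed here.

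A gene was counted when a peak overlapped it, or the 10000 bp on either side, by at least 1 bp. Pair 1 had such a peak at 8 of 122 members (6.56%), beside 8.64% of 21774 protein-coding genes counted in the same way. Pair 2 had one at 42 members (34.4%), beside 49.8% of protein-coding genes. Both lists had one at 4 members (3.28%, against 6.30%), and at the same 4 members the peaks of the lists overlapped each other (3.28%, against 2.06%). These 4 genes, Vmn2r53, Vmn2r54, Vmn2r55 and Vmn2r56, are neighbours on chromosome 7. At 76 members (62.3%) neither list had a peak. The same share over protein-coding genes was not counted, so this number is not read as particular to the family. With peaks of -log10 q of at least 5 alone, the counts were 5 members in pair 1 (4.10%, against 2.63%) and 15 in pair 2 (12.3%, against 27.8%). None of the 122 then kept overlapping peaks, and the share of protein-coding genes that did was not counted. The members share arrays and sequence and are not independent of each other, so no test of these shares was made and none is called different from the background.

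The lists differ in length, with 11375 peaks in pair 1 and 40628 in pair 2, a ratio of 3.57. A typical peak rests on few fragments. The deposited fold and p-value of a peak give the number of IgD fragments at its summit if both terms of the fold carry a pseudocount of 1 and IgD fragments were left unscaled, which no source used here states. The median was then 13 fragments in pair 1 and 14 in pair 2. The folds and q-values below are the authors' own, from their peak caller. Ranges in brackets after a fragment number are its 95% Poisson limits (exact), for counting error alone.

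Vmn2r53, Vmn2r54, Vmn2r55 and Vmn2r56 lie side by side on chromosome 7, from 12581470 to 12733320, and are transcribed from the minus strand. Their promoters are shown first, because these were the only members with peaks in both lists. Each line gives the 250 bases before the annotated start, 5′ to 3′ on the gene's strand, from RefSeq on GRCm38.p6. The windows are chr7:12606545-12606794 for Vmn2r53, chr7:12636135-12636384 for Vmn2r54, chr7:12684992-12685241 for Vmn2r55 and chr7:12733106-12733355 for Vmn2r56. The start that RefSeq's promoter window uses for Vmn2r56 lies inside the gene's outer bound. Capitals mark bases that do not match Vmn2r55 in a pairwise alignment.

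Vmn2r53: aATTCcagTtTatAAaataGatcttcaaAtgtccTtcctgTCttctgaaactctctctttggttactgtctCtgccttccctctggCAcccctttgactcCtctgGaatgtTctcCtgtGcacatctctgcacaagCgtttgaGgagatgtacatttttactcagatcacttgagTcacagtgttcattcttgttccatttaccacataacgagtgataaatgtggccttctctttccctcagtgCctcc
Vmn2r54: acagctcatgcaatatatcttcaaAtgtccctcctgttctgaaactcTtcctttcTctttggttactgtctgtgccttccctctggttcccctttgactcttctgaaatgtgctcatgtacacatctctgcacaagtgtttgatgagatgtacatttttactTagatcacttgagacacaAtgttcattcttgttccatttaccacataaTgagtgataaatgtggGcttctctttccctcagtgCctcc
Vmn2r55: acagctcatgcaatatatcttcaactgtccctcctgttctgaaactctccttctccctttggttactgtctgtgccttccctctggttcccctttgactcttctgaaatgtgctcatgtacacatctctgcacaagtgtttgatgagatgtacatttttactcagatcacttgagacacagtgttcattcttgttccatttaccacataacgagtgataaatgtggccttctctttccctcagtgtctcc
Vmn2r56: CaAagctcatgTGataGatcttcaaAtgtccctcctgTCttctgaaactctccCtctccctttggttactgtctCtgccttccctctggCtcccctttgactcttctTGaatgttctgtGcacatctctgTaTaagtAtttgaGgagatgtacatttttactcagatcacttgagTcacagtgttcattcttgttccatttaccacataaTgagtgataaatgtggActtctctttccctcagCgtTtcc

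The 4 promoters are close copies. Over these 250 bases Vmn2r54 was 96.4% identical to Vmn2r55, with 8 of its bases differing, Vmn2r56 was 89.7% identical, with 23 differing, and Vmn2r53 was 87.9% identical, with 25 differing. The window from 250 bases before to 50 after the start lay wholly under a peak of pair 1 at Vmn2r55, and wholly under a peak of pair 2 at Vmn2r54 and Vmn2r56. None of the 4 promoter windows was under peaks of both lists, and that of Vmn2r53 was under neither.

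In pair 1 the peaks at these genes formed a run, defined as peaks less than 20000 bp apart. The run held 52 peaks between 12545297 and 12747971, a span of 203 kb, and covered 41.0% of it. It spanned all 4 receptor genes and part of their neighbour 2900092C05Rik. This came to 257 peaks per Mb, where chromosome 7 as a whole had 5.78 per Mb in pair 1. Of the 3426 runs in pair 1, 31 held at least as many peaks, this one included. Past its higher-coordinate end the next peak of pair 1 lay 422 kb away. Past its lower-coordinate end it lay 24.6 kb away, little more than the distance allowed within a run. A run is dense by its definition, which was made after the peaks had been seen, so the density only describes the run.

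**Figure D1:**
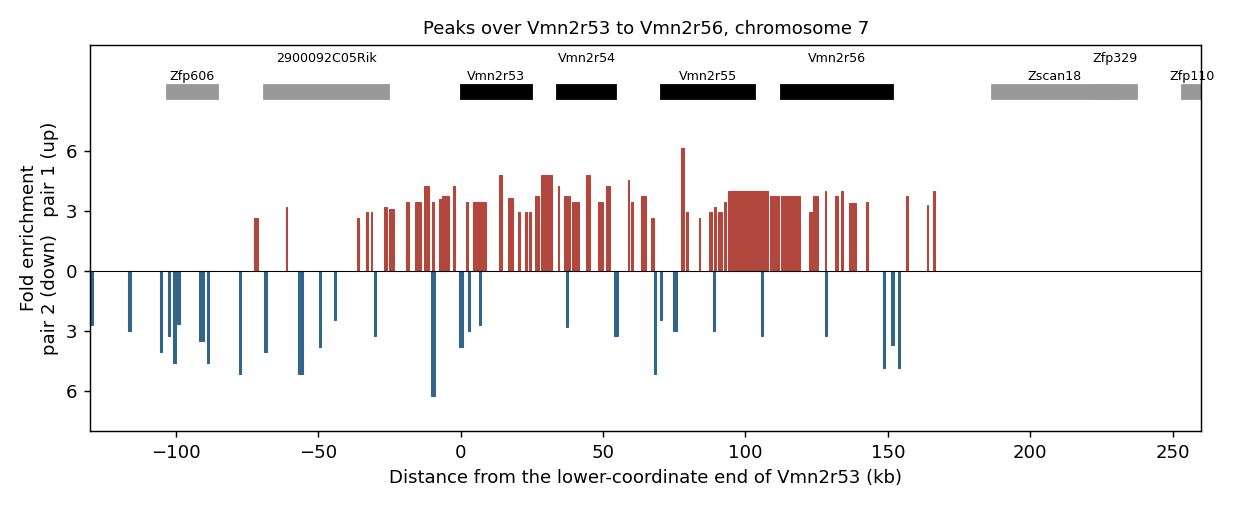
Peaks around Vmn2r53 to Vmn2r56 on chromosome 7. The x axis is the distance in kb from the lower-coordinate end of Vmn2r53. Bars have the width of each peak and the height of its fold enrichment, upward for pair 1 and downward for pair 2, and black boxes are Vmn2r genes and grey boxes other coding genes. Pair 1 peaks crowd over the 4 receptor genes, up to a fold of 6.12, while pair 2 peaks are fewer there and reach further to the left.

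Each of the 4 genes was touched by many pair 1 peaks of moderate height. Vmn2r53 (25075 bp) had 15 within its window, 8 of them inside the gene, with a highest fold of 4.79 from 17 fragments (9.90 to 27.2). Vmn2r54 (20902 bp) had 12, with 6 inside and the same highest fold of 4.79, reached both inside the gene and in the flank it shares with Vmn2r53. Vmn2r55 (33286 bp) had 13, with 8 wholly or partly inside and the highest fold of the run, 6.12 from 22 fragments (13.8 to 33.3). Vmn2r56 (39461 bp) had 11, with 8 inside and a highest fold of 3.99 from 14 fragments (7.65 to 23.5). The intervals of these 4 highest summits overlap one another. The widest peak of the run, 13978 bp from 12675250 to 12689227, covered the start of Vmn2r55 and reached into the flank of Vmn2r56.

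Pair 2 had fewer peaks at the same genes. Its peaks numbered 4 at Vmn2r53, 2 at Vmn2r54, 5 at Vmn2r55 and 5 at Vmn2r56. The highest folds were 6.22 at Vmn2r53, 3.24 at Vmn2r54, 5.14 at Vmn2r55 and 4.87 at Vmn2r56. Within the span of the pair 1 run lay 16 pair 2 peaks, 78.9 per Mb, where chromosome 7 had 17 per Mb in pair 2. This span was drawn from the pair 1 run at genes picked for having peaks in both lists, so its density is a description only. Pair 2 had a run of its own of 30 peaks over 195 kb, from 12394253 to 12588789 (154 per Mb), of which 4 were in the window of Vmn2r53. The rest lay towards 2900092C05Rik, Zfp551 and Zfp606, so the pair 2 peaks were not centred on the receptor genes. With peaks at most 10000 bp apart, this run held 4 peaks. At 20000 bp, 72 of the 23689 pair 2 runs held 30 or more peaks, this one included.

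The positions agreed less closely than the region did. In the run, 7 of 52 peaks of pair 1 met one of pair 2, and 7 of 16 peaks of pair 2 met one of pair 1. Pair 1 peaks covered 41.0% of the span, and no test of the overlap was made. The summits of 1 overlapping couple were within 200 bp, 62 bp apart, upstream of the start of Vmn2r55 in the flank it shares with Vmn2r56. There the pair 1 peak was the 13978 bp one, with 14 fragments (7.65 to 23.5), and the pair 2 peak spanned 749 bp, with a fold of 3.24 from 11 fragments (5.49 to 19.7). The strongest pair 2 peak at these genes spanned 12571162 to 12572338 in the flank of Vmn2r53, with a fold of 6.22 from 22 fragments (13.8 to 33.3). A pair 1 peak overlapped it with a fold of 3.46 from 12 fragments (6.20 to 21.0), and the summits were 683 bp apart.

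The other 4 members with a pair 1 peak had none in pair 2. Vmn2r65 (chromosome 7, 84940169 to 84964009) had 4 pair 1 peaks in a run of 26.0 kb, with folds from 2.93 to 4.26. One of them, from 84962821 to 84965054 with a fold of 3.73, covered its promoter window. Vmn2r19 and Vmn2r20 on chromosome 6 had 1 peak each outside the gene, 7997 and 5329 bp from it, with folds of 6.12 and 5.86 from 22 fragments (13.8 to 33.3) and 21 fragments (13.0 to 32.1). Vmn2r11 on chromosome 5 had 1 peak inside the gene with a fold of 2.93 from 10 fragments (4.80 to 18.4). At these 4 genes the nearest pair 2 peak lay between 10401 bp away, at Vmn2r65 and just outside its window, and 192157 bp away, at Vmn2r20.

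By position the family fell into 18 clusters, with neighbours in a cluster at most 1000000 bp apart, and 6 of the clusters held a single gene. Pair 1 had a peak at members of 4 clusters and pair 2 at members of 15, the 4 of pair 1 among them. In 3 clusters, each of a single gene, neither list had a peak: Vmn2r28 on chromosome 7, Vmn2r129 on chromosome 4 and Vmn2r121 on chromosome X. Of the 49 pair 1 peaks within 10000 bp of a member, 42 were at Vmn2r53 to Vmn2r56. Of the 82 pair 2 peaks, 15 were there.

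**Figure D2:**
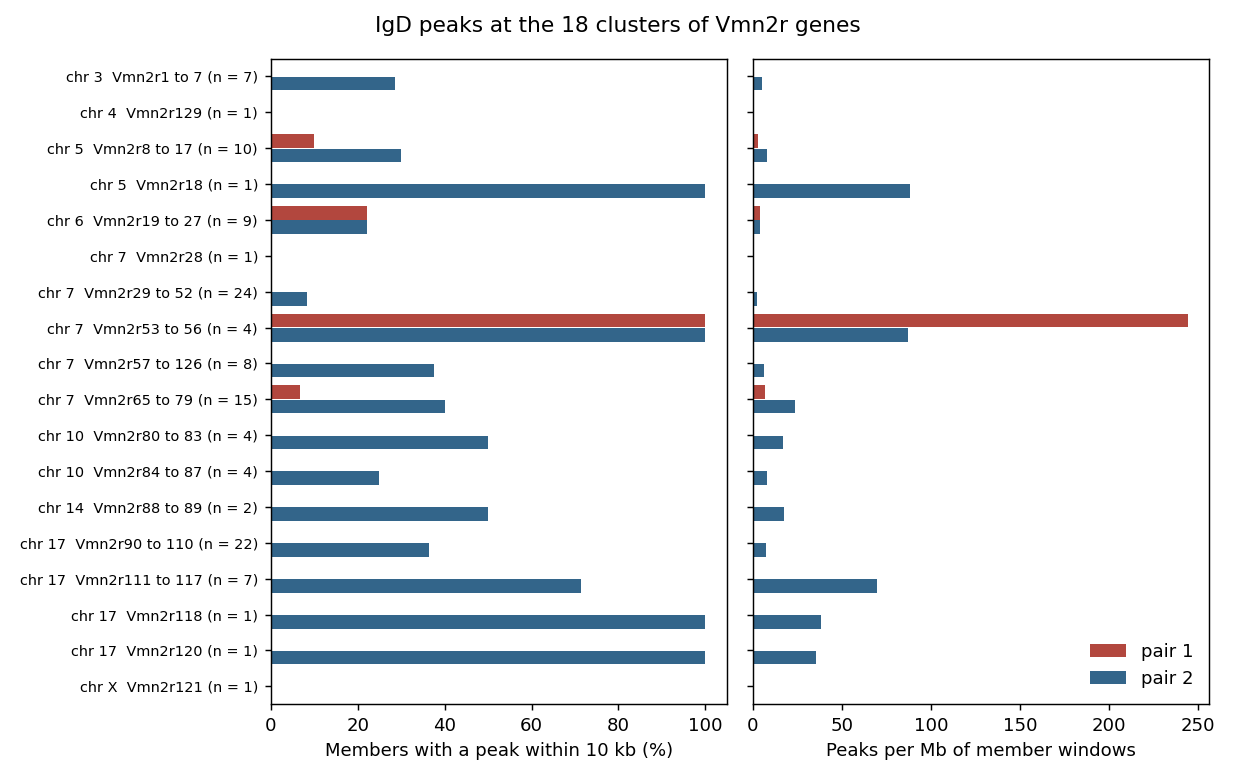
Peaks at the 18 clusters of Vmn2r genes, ordered by chromosome, with the number of members in brackets. The left panel gives the percentage of members with a peak within 10 kb and the right panel the number of peaks per Mb of member windows, in red for pair 1 and blue for pair 2. The cluster of Vmn2r53 to Vmn2r56 reaches 244 peaks per Mb in pair 1 and 87.3 in pair 2, while most clusters have no pair 1 peak.

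The density of peaks was uneven along the family. The windows of all members together, 5.54 Mb, held 8.85 pair 1 peaks per Mb, where the assembled chromosomes had 4.24. Without Vmn2r53 to Vmn2r56 the windows held 1.31 per Mb, so that 1 cluster turned a density below that of the chromosomes into one above it. In pair 2 the corresponding values were 14.8 per Mb with the cluster, 12.5 without it, and 15.2 over the chromosomes. Member windows without this cluster were covered by peaks over 0.131% of their length in pair 1 and 1.12% in pair 2. The windows of all protein-coding genes were covered over 0.972% and 2.10%, or 0.271% and 1.26% by peaks narrower than 5000 bp. No base of the member windows without the cluster was under peaks of both lists. That share was not counted for other genes.

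The 2 largest clusters were sparse. Vmn2r29 to Vmn2r52, 24 genes over 2963 kb at the proximal end of chromosome 7, had no pair 1 peak and pair 2 peaks at 2 members, Vmn2r29 and Vmn2r35 (2.0 peaks per Mb of windows). Vmn2r90 to Vmn2r110, 22 genes over 2892 kb of chromosome 17, had no pair 1 peak and pair 2 peaks at 8 members (7.55 per Mb). Over all protein-coding genes of chromosome 7, 44.0% had a pair 2 peak, against 28.8% of its 52 members. On chromosome 17 the shares were 44.8% and 48.4% of 31 members.

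Pair 2 had runs of its own where pair 1 had no peak. At Vmn2r111 and Vmn2r112 (chromosome 17, 22547941 to 22573273 and 22601148 to 22619133) pair 2 had a run of 29 peaks over 207 kb, 140 per Mb against 14.4 per Mb of the chromosome. Runs are dense by definition, and of the 23689 runs in pair 2, 76 held at least as many peaks, this one included. The run also took in Gm9805, and 15 of its peaks were in the windows of the 2 receptor genes. With peaks at most 10000 bp apart it held 14 peaks over 63.7 kb. Vmn2r111 had 9 peaks in its window, with folds from 2.28 to 5.68, and Vmn2r112 had 6, with folds from 2.43 to 6.22. The 7 members of this chromosome 17 cluster, Vmn2r111 to Vmn2r117, had pair 2 peaks in 5 cases, where 44.8% of the chromosome's protein-coding genes had one. Pair 1 had no peak within this run, and none within 315859 bp of Vmn2r111.

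A similar run lay at Vmn2r75 and Vmn2r76 (chromosome 7, 86148042 to 86171724 and 86225206 to 86246201). Pair 2 had 25 peaks there over 161 kb, 155 per Mb against 17 per Mb of the chromosome, of which 9 were in the windows of the 2 receptor genes. Its density too follows from how runs were defined, and 95 of the 23689 pair 2 runs held at least as many peaks, this one included. This run took in Olfr310 and depended on the distance allowed. At 10000 bp it fell into 4 peaks at Vmn2r75 (18.1 kb) and 7 at Vmn2r76 (39.4 kb), and at 50000 bp it grew to 73 peaks over 511 kb with 13 Olfr genes and 15 pair 1 peaks in its span. The 4 peaks of Vmn2r75 were all inside the gene, and 1 of them had the highest pair 2 fold of any member, 6.49 from 23 fragments (14.6 to 34.5). Vmn2r76 had 5 peaks with folds up to 5.95. The nearest pair 1 peak was 221181 bp from Vmn2r76 and 295658 bp from Vmn2r75.

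**Figure D3:**
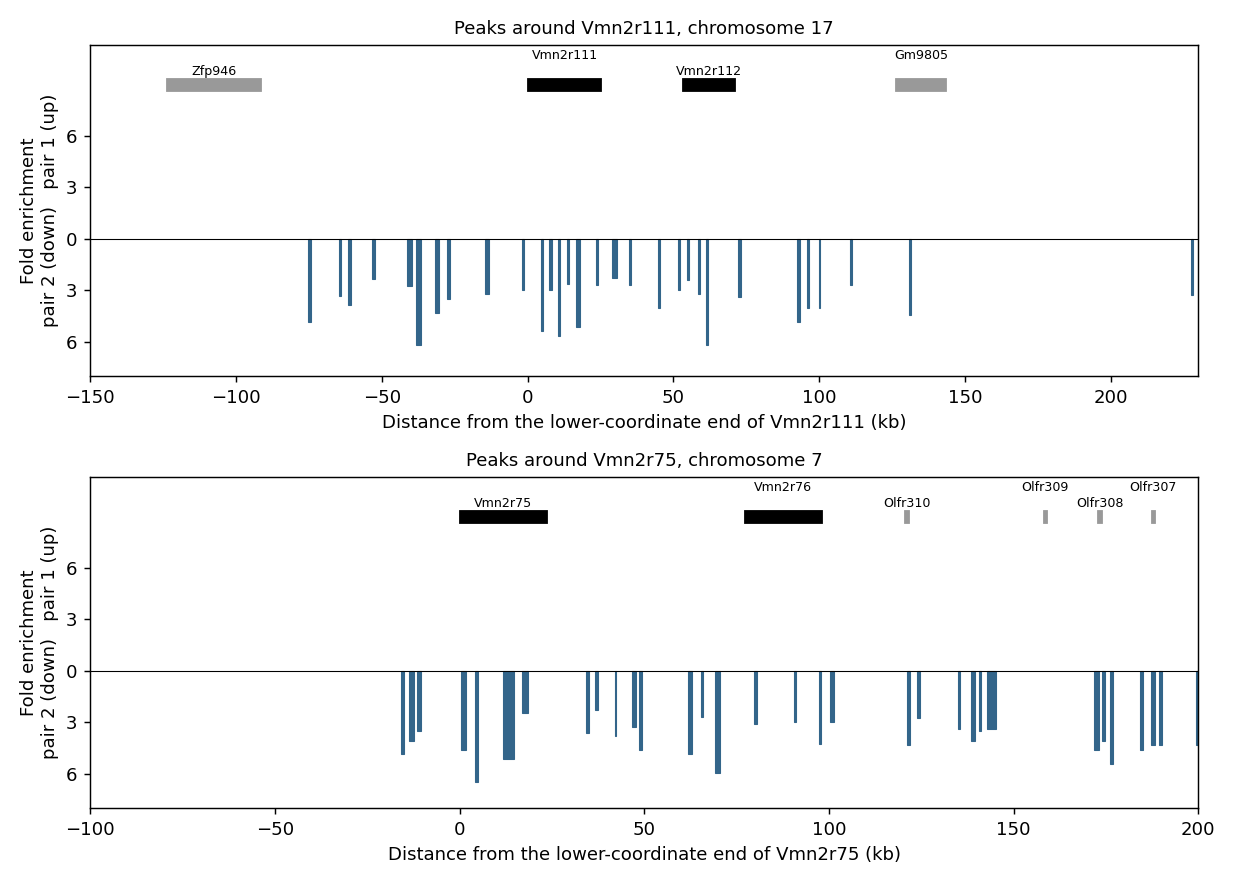
Peaks around Vmn2r111 and Vmn2r112 on chromosome 17 (top) and around Vmn2r75 and Vmn2r76 on chromosome 7 (bottom). The x axes give the distance in kb from the lower-coordinate end of Vmn2r111 or Vmn2r75, and bars show fold enrichment as in the map of Vmn2r53 to Vmn2r56. All peaks drawn are from pair 2, up to folds of 6.22 and 6.49 at the receptor genes, and no pair 1 peak falls in either window.

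The other 34 members with a pair 2 peak had few peaks each. Of these, 27 had 1 peak, 6 had 2 or 3, and Vmn2r18 had 4. The highest fold at a member ranged from 2.43 to 6.49 with a median of 3.51, from 8 to 23 fragments with a median of 12. Vmn2r114 on chromosome 17 had 1 peak, 3934 bp from the gene, that tied for the highest fold, 6.49. Vmn2r82 on chromosome 10 had 1 peak with a fold of 5.95, and its neighbour Vmn2r81 had 3, with a highest fold of 4.87. Among single-gene clusters, Vmn2r18 on chromosome 5 had 4 peaks with folds up to 5.95, Vmn2r118 had 2 with folds up to 4.33 and Vmn2r120 had 2 with folds up to 3.78.

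The cluster of Vmn2r1 to Vmn2r7 on chromosome 3 encodes the receptors that are co-expressed with other V2Rs in most basal neurons. It had pair 2 peaks at 2 of 7 members, Vmn2r3 with a fold of 3.51 and Vmn2r7 with a fold of 3.78, and none in pair 1. Over all protein-coding genes of chromosome 3, 50.6% had a pair 2 peak and 7.63% a pair 1 peak. With 7 genes these counts are a description only.

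Peaks at the members were of usual or slightly larger median width, with few wide ones. In pair 1 the median width was 949 bp with a range of 499 to 13978 bp, beside a median of 856 bp over the whole list. Of the members' pair 1 peaks 75.5% were under 2000 bp, beside 81.5% of all, and 2 of 49 peaks (4.08%) were 5000 bp or wider, beside 9.52% of all pair 1 peaks. In pair 2 the median was 807.5 bp with a range of 517 to 2859 bp, beside 774 bp over the whole list. There 97.6% of the members' peaks were under 2000 bp, beside 94.3% of all, and 0 of 82 peaks were that wide, beside 3.19% of all pair 2 peaks. No peak of 20000 bp or more touched a member in either list. Such peaks were rare in the whole lists, 293 of 11375 in pair 1 and 318 of 40628 in pair 2. Their absence among 49 and 82 peaks is therefore not read as a trait of the family. The 2 peaks of 5000 bp or wider lay in the run at Vmn2r55 and Vmn2r56. The median fold was 3.73 at members and 3.46 over all peaks in pair 1, and 3.24 against 3.78 in pair 2.

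**Figure D4:**
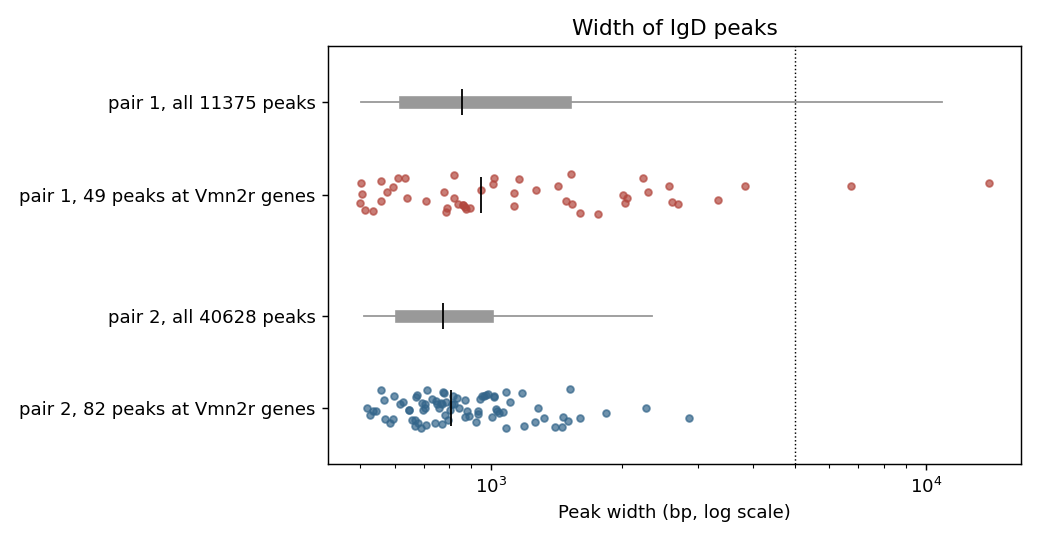
Width of peaks in bp on a log scale. Coloured points are the single peaks at Vmn2r genes, spread vertically for clarity, and grey bars give the range from the 25th to the 75th percentile of all peaks of the list, with thin lines from the 5th to the 95th and black ticks at medians. The dotted line marks 5000 bp, which 2 pair 1 peaks and 0 pair 2 peaks at members reach.

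Within the members' windows agreement between the lists was limited to the run on chromosome 7. In pair 1, 7 of 49 peaks at members (14.3%) overlapped a peak of the other list, beside 27.5% over the whole list. In pair 2 it was 7 of 82 (8.54%), beside 6.76% over the whole list. All of these overlaps were at Vmn2r53 to Vmn2r56. A member gene itself was overlapped by at least 1 bp by 34 of the pair 1 peaks (69.4%) and 50 of the pair 2 peaks (61.0%). Some of these peaks reached into a flank, and the others lay wholly in one. No such share was counted for other genes.

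Starts of the receptor genes were set against the peaks. RefSeq promoter windows of 300 bases were matched for 116 members, 117 windows in all as Vmn2r29 has more than 1. Peaks of pair 1 overlapped 2 of them (1.72% of the 116 members), at Vmn2r55 and Vmn2r65, and peaks of pair 2 overlapped 2 (1.72%), at Vmn2r54 and Vmn2r56. Over 17492 protein-coding genes with a promoter window, 1.61% were under a pair 1 peak and 4.06% under a pair 2 peak, so the pair 1 share of the members was at the background. At Vmn2r56 the pair 2 summit was 237 bp from the start, and at Vmn2r54 it was 336 bp away.

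The promoters of the family were poor in GC and in CpG. The median member promoter had 38% GC and 1 CpG, against 56.3% and 13 over protein-coding promoters. Promoters of Vmn2r53 to Vmn2r56 had a median of 44.7% GC and 3 CpG. The letters TATAAA, searched on both strands, were present in 27 of 116 member promoters (23.3%) and in 13.3% of protein-coding ones. All 8 matched promoters of the chromosome 6 cluster, Vmn2r19 to Vmn2r27, held them, and 0 of 22 in the cluster of Vmn2r29 to Vmn2r52 did. A match is only an occurrence of these letters.

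How alike the promoters of the family are was measured as the identity of each window to that of the nearest other member. The median was 91.1% with a range of 49.6% to 100%, and 63 of 116 (54.3%) were at 90% or more. The 40 members with a pair 2 peak had a median of 89.2%, and 45.0% of them were at 90% or more. The 76 without one had a median of 92.5%, and 59.2% were at 90% or more. The sparse cluster of Vmn2r29 to Vmn2r52 had a median of 99% over 22 promoters, and Vmn2r111 to Vmn2r117, with pair 2 peaks at 5 of 7 members, had 98.3%. These are 2 of 18 clusters, and promoter identity does not measure likeness of the gene bodies and flanks where most peaks lay. The sources used here do not say how reads were assigned among close copies, and the part of sequence likeness in the counts was not tested.

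**Figure D5:**
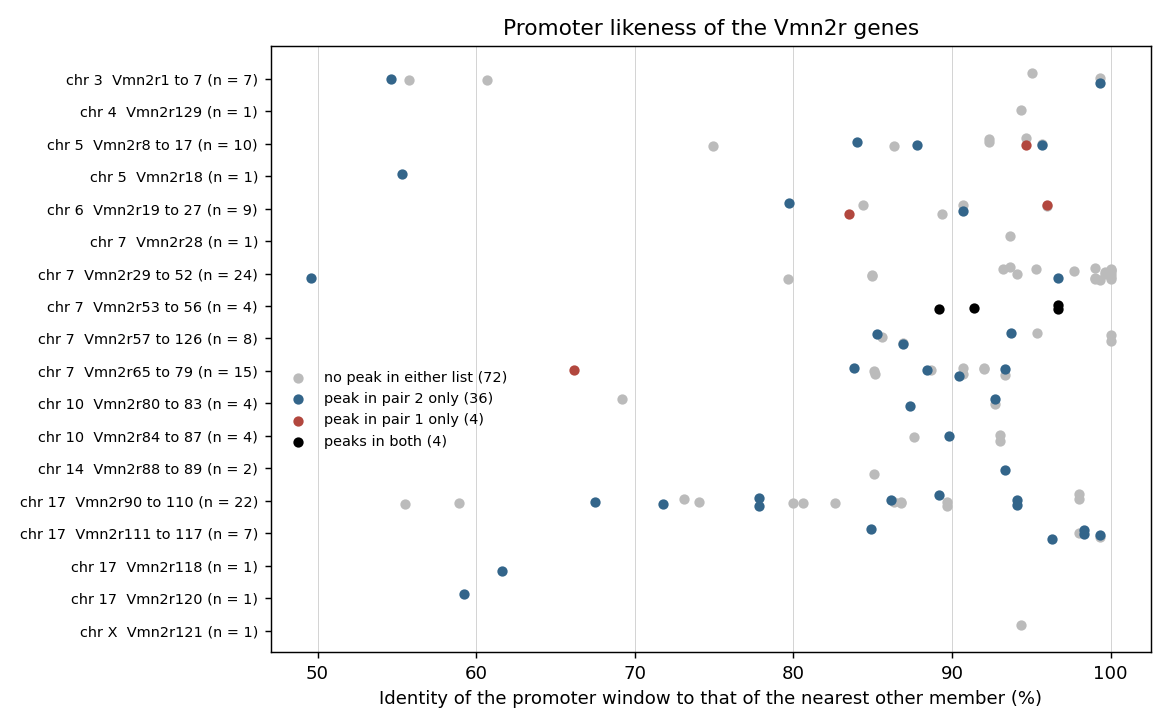
Identity in percent of each member's promoter window to that of the nearest other member, by cluster, with the number of members in brackets. Each point is 1 of 116 genes, grey without a peak, blue with a peak in pair 2 only, red in pair 1 only and black in both. The black points, Vmn2r53 to Vmn2r56, lie between 89.2% and 96.7%, inside the range of members without a peak.

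Genes of the V2R pathway were counted from lists in the same window. Of 24 genes for signalling and co-expressed proteins of V2R neurons, 1 had a pair 1 peak (4.17%, beside 8.64% of protein-coding genes) and 11 a pair 2 peak (45.8%, beside 49.8%). Gnao1, the G protein alpha subunit of V2R neurons, had 1 pair 2 peak with a fold of 3.78, and Trpc2 had none. Ano1, a calcium-activated chloride channel, had peaks in both lists that did not overlap, with folds of 3.20 and 5.54. Of 22 other class C receptors, 1 had a pair 1 peak and 16 a pair 2 peak (72.7%, beside 49.8%). Their median length was 25756 bp (24640.5 bp for Vmn2r genes), and the part of length in these counts was not tested. The 1 with both was the long gene Grm7, a metabotropic glutamate receptor, with 5 and 20 peaks and folds up to 3.99 and 6.22. Formyl peptide receptor genes, which include vomeronasal receptors, had a pair 2 peak in 2 of 7 cases and 0 in pair 1.

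Genes for V2R ligands were counted in the same way. Of 37 major urinary protein and exocrine gland peptide genes, 11 had a pair 1 peak (29.7%, beside 8.64%), 16 a pair 2 peak (43.2%, beside 49.8%) and 10 both (27.0%, beside 6.30%). The 10 with both were all major urinary protein genes of chromosome 4, Mup1, Mup2, Mup7, Mup8, Mup9, Mup10, Mup11, Mup15, Mup16 and Mup17. At 9 of them the peaks of the lists overlapped. Wide peaks of 5000 bp or more lay at 6 ligand genes in pair 1 and 10 in pair 2, where the receptors had 2 and 0. Some neighbours had the same wide peak in their windows and are not independent. These were Mup1 with Mup10 in both lists, Mup16 with Mup17 in pair 1, and Mup14 with Mup15 and Mup16 in pair 2.

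The other large families of chemosensory receptors were counted for comparison, without a test. Vmn1r genes, which encode the vomeronasal type 1 receptors of the apical neurons, had a pair 1 peak in 41 of 228 cases (18%) and a pair 2 peak in 67 (29.4%), with overlapping peaks at 15 (6.58%). A peak of 5000 bp or wider lay at 31 Vmn1r genes in pair 1 (13.6%) and 11 in pair 2 (4.82%), against 2 (1.64%) and 0 Vmn2r genes. Of the 31, 22 rested on 3 peaks that each took in several neighbours. Olfr genes had a pair 1 peak in 7.78% and a pair 2 peak in 32.9% of 1105 cases, and overlapping peaks in 3.62%. The same shares over all protein-coding genes were 8.64% in pair 1, 49.8% in pair 2 and 2.06% with overlapping peaks. For peaks of 5000 bp or wider no share over protein-coding genes was counted. The Vmn1r and Olfr genes are short, with medians of 924 and 951 bp against 24640.5 bp for Vmn2r genes, so their windows held less sequence. The part of length in these shares was not tested.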

How the data were processed

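Chromatin from sorted pro-B cells was immunoprecipitated for IgD (2 libraries) or with mouse IgG (2 libraries), and groups and replicate numbers were read from the sample titles. Per the submitters' processing notes, HISAT2, MACS2 and ChIPseeker were used with mm10, without versions or settings. How duplicates, reads with several positions and excluded regions were handled is not stated in these sources. The fold ratio at the summit and the -log10 p and -log10 q were deposited by the authors in 1 narrowPeak list per pair. The lowest -log10 q was 1.31 and 1.30.

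Gene positions came from RefSeq on GRCm38.p6. Within each chromosome its rows run by start, and 348 rows after that order restarts were taken as scaffold genes and left out. Peaks were set against genes widened by 10000 bp. Fragment numbers were found by matching fold and p-value to an upper Poisson tail, within 0.01 of the deposited -log10 p for all 11375 and 40628 peaks. Promoters were aligned globally, and identity is matches over aligned columns, gaps included. No protein sequences were used. The members and lists were chosen with earlier results of these data known.

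Genes named in the text were, by rule, members with overlapping peaks, the 10 members of highest fold in each list (8 in pair 1), single-gene clusters, and pathway genes with a peak in both lists. Vmn2r3, Vmn2r7, Vmn2r29, Vmn2r35, Gnao1, Trpc2 and the genes beside or within the runs were added after their values were seen. The promoter rule, windows inside peaks of both lists, found none, so the 4 printed were chosen for their peaks. Counting and fragment solving were tested on simulated data. Alternatives were other windows, q, width, overlap, list length, cluster gap and, added after seeing the data, run gap. Python 3.11.15, numpy 2.4.6, pandas 2.3.3, scipy 1.17.1, Biopython 1.88 and matplotlib 3.10.9 were used.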

Additional observations from a re-analysis of the deposited data

How the results depend on the processing

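The agreement of the lists rests on 1 cluster and on peaks of modest significance. Without Vmn2r53 to Vmn2r56, an alternative chosen after seeing the data, 4 members had a pair 1 peak, and 0 had peaks in both lists or overlapping peaks. The 0 was fixed by this choice, as the genes left out were the only members with peaks in both lists. With a -log10 q of at least 5, pair 1 had a peak at 5 members (4.10%, against 2.63% of protein-coding genes) and pair 2 at 15 (12.3%, against 27.8%), 2 had both, 0 had overlapping peaks and 1 cluster had both. The peaks then covered 0.0955% of the clusters' length in pair 1 and 0.881% in pair 2, against 0.688% and 1.89% with all peaks. Over the assembled chromosomes all peaks covered 1.64% and 2.83%, and the share at the stricter q was not counted there. With pair 2 cut to the length of pair 1, it had a peak at 11 members (9.02%, against 22.3%), and 2 had overlapping peaks. Summits within 200 bp were found at 2 members. A window of 50000 bp gave 82 members in pair 2 (67.2%, against 81.5%) and 9 in both lists. Members with a peak in either list numbered 46, and 8 to 42 with 1 list left out. For peaks in either list, and for peaks in both lists or overlapping under these alternatives, no share over protein-coding genes was counted. Runs of pair 2 changed with the distance allowed between peaks, also chosen after seeing the data: 10000 bp gave 4 peaks at Vmn2r53 (30 at 20000 bp), 4 at Vmn2r75 and 7 at Vmn2r76 (25), and 14 at Vmn2r111 (29), and 50000 bp gave 73 at Vmn2r75 and Vmn2r76. The pair 1 run kept 49 to 54 peaks. The gene body alone, a window of 3000 bp, peaks narrower than 5000 bp, summits in the window and other cluster gaps kept their counts within 1.5 times of those reported. No paired analysis was possible because each list already joins the IgD and IgG libraries of 1 number and no result comes from a test.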

Other observations

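Pseudogenes of the family, which are not members, were counted in the same window without a test. Of 149 Vmn2r pseudogenes, 26 had a pair 1 peak (17.4%), 53 a pair 2 peak (35.6%) and 20 had overlapping peaks of both lists (13.4%). Over protein-coding genes these shares were 8.64%, 49.8% and 2.06%, and no share with wide peaks was counted there. A peak of 5000 bp or wider lay at 18 of them in pair 1 and 21 in pair 2, against 2 and 0 of the coding members. Vmn2r-ps15 on chromosome 4 lay under a single peak of each list, 374612 bp wide in pair 1 with a fold of 23.2 and 407099 bp wide in pair 2 with a fold of 14.8. Vmn2r-ps97, Vmn2r-ps98, Vmn2r-ps99 and Vmn2r-ps100 on chromosome 13 shared a pair 2 peak of 709336 bp with a fold of 12.4, and their highest pair 1 folds were between 4.26 and 6.12. The pseudogenes are short, with a median of 1309 bp, and those under 1 peak are not independent of each other. Vmn2r-ps53, from 12445358 to 12468888 on chromosome 7, lay within the pair 2 run at Vmn2r53 and outside the pair 1 run. It had 6 pair 2 peaks with folds up to 4.05 and 0 in pair 1.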
